A study of Mus musculus with 4514 samples.

Results

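Tetraploid (4N) nuclei of adult mouse hepatocytes were compared between nuclei labelled 2x4N and nuclei labelled 1x4N, all taken at postnatal day 60 (P60). The nuclei were taken by these ploidy labels, which gave 56 nuclei of 2x4N and 69 of 1x4N among the 1113 nuclei in the table and the 4514 samples in the series. The labels do not spell out the code, and it is read here as the number of nuclei in a cell and the DNA content of each nucleus, so that a 2x4N nucleus comes from a binucleate cell and a 1x4N nucleus from a mononucleate one. Both groups came from liver hepatocytes of mice of the genotype Alb-Cre; Rosa-tdTomato, with no further treatment, so every group carries the recombinase, which the albumin promoter drives in hepatocytes, and the red reporter. Hepatocytes were sorted, broken open with a homogeniser and stained for DNA, and single nuclei were sorted into wells and processed by mSTRT-seq, a well-based single-cell RNA method, here with 4 + 16 cycles of amplification. No label names an animal. Each group is therefore 1 sample, no p-value is given anywhere, and differences are described by fixed rules of size. A 2x4N cell also holds more DNA in all than a 1x4N cell, and the number of nuclei and the DNA of the whole cell cannot be told apart in this design.

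Hepatocytes become polyploid after weaning, when cells replicate their DNA without completing cell division. A cell that divides its nucleus but not its cytoplasm becomes binucleate, and a binucleate cell whose next mitosis joins its chromosomes on 1 spindle can give mononucleate daughters of higher ploidy. Hepatocytes also differ along the liver lobule: cells near the central vein (pericentral) make glutamine, bile acids and drug-metabolising cytochrome P450 enzymes under Wnt signalling, whereas cells near the portal vein (periportal) carry out urea synthesis, gluconeogenesis and the breakdown of several amino acids.

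The 2 groups were alike in depth. A 1x4N nucleus held 10166 to 576656 gene counts (median 311937) and 2320 to 6348 genes (median 5416), and a 2x4N nucleus held 9716 to 666872 counts (median 314253) and 2735 to 6323 genes (median 5490). No pair of these nuclei had identical values. Of 12 hepatocyte markers, 11 had a count in each group, and their summed level was 12108 to 26014 CPM (counts scaled so that each nucleus totals 1000000) in 2x4N and 11096 to 23574 CPM in 1x4N. Summed levels of macrophage markers were 0 to 45.96 and 0 to 97.3 CPM, those of lymphocyte and neutrophil markers 0 to 19.8 and 0 to 117.4 CPM, and those of erythroid markers 0 and 0 to 98.2 CPM, in 2x4N and 1x4N respectively. Macrophage markers were at 0 in 53 of 56 and 53 of 69 nuclei, and lymphocyte and neutrophil markers in 54 and 68. Erythroid markers were at 0 in 56 and 66 nuclei. Ptprc, Csf1r and Clec4f, which mark blood cells and liver macrophages, were at 0 in both groups. The counts came from other members of their lists. Endothelial markers were at 0 in 30 of 56 and 44 of 69 nuclei, with highest summed levels of 520.2 and 335.98 CPM, and stellate cell and fibroblast markers were at 0 in 37 and 52 nuclei, with highest levels of 308.8 and 305.02 CPM. Cholangiocyte markers were at 0 in 16 nuclei of each group, with medians of 53.3 and 35.3 CPM and highest levels of 400.6 and 441.3 CPM; their part in the results was not tested. Xist, the RNA of the inactive X chromosome, was at 0 in both groups, and the Y-linked Ddx3y averaged 152.4 CPM in 2x4N and 145.2 CPM in 1x4N.

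Gene counts per count of the added ERCC spike-in RNA differed little between binucleate and mononucleate origin at the same nuclear ploidy. This measure stands for the RNA of a nucleus only if each well got the same spike-in, which the labels do not state. The median was 17.3 gene counts per spike-in count in 2x4N (range 9.43 to 29.6) and 16.5 in 1x4N (range 3.42 to 31.96), a ratio of 1.05. The lower quartiles were 14.4 in 2x4N and 13.8 in 1x4N, and the groups overlapped almost throughout. Nuclear DNA content went with a much larger difference: the diploid 1x2N and 2x2N nuclei had medians of 7.37 and 8.39, and the 4N nuclei exceeded the 2N nuclei of the same nuclear number by ratios of 2.24 (mononucleate) and 2.06 (binucleate). With each nucleus thinned to 100000 counts, which kept 53 of 2x4N and 62 of 1x4N, a median of 4889 and 4952 genes was detected in the 2 groups.

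**Figure D1:**
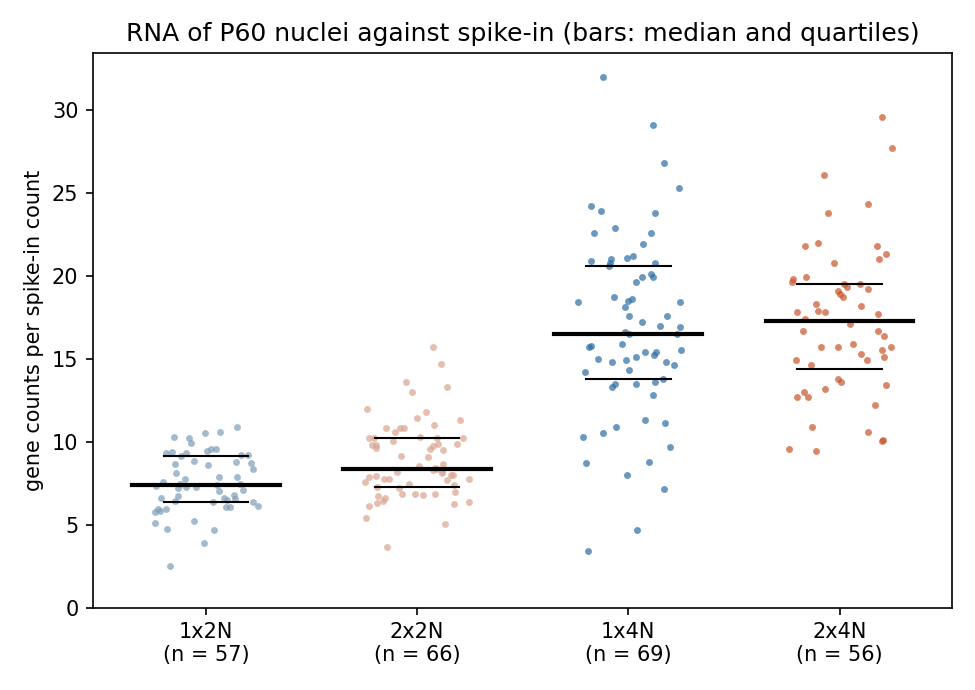
Gene counts per ERCC spike-in count in each P60 nucleus (points) of the 4 groups, with the median and quartiles as bars. The 2x4N and 1x4N medians, 17.3 and 16.5, lie close together, and the 2 diploid groups lie lower, at 8.39 and 7.37.

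Gene levels were given as the mean over nuclei of CPM, each nucleus scaled to its own total without spike-ins. A gene was tested if it had a count in at least 20% of all nuclei of the 2 groups pooled, and it was called if the means differed at least 2-fold both with all nuclei and without the highest nucleus of each group for that gene. Of 8067 genes tested, 1.97% were called higher in 2x4N and 2.31% lower, in all 345 genes or 4.28%. With 1.5-fold in place of 2-fold in the same rule, 7.30% were higher and 8.23% lower. The median log2 ratio over all genes tested was 0.00, and the 10th and 90th percentiles were -0.56 and 0.52. Because the filter pooled the groups, a gene could pass it through the group where it was high: 44.1% of the called genes had a count in under 20% of the nuclei of the lower group. The calls lay at low levels: of the 345, 43 higher and 45 lower averaged at least 20 CPM over both groups, and the median level of the called genes was 14.2 CPM against 44.1 CPM over all genes tested. Of 1670 genes with a count in at least 90% of these nuclei, 0 passed 2-fold, and their 10th and 90th percentiles were -0.24 and 0.24 on the log2 scale.

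**Figure D2:**
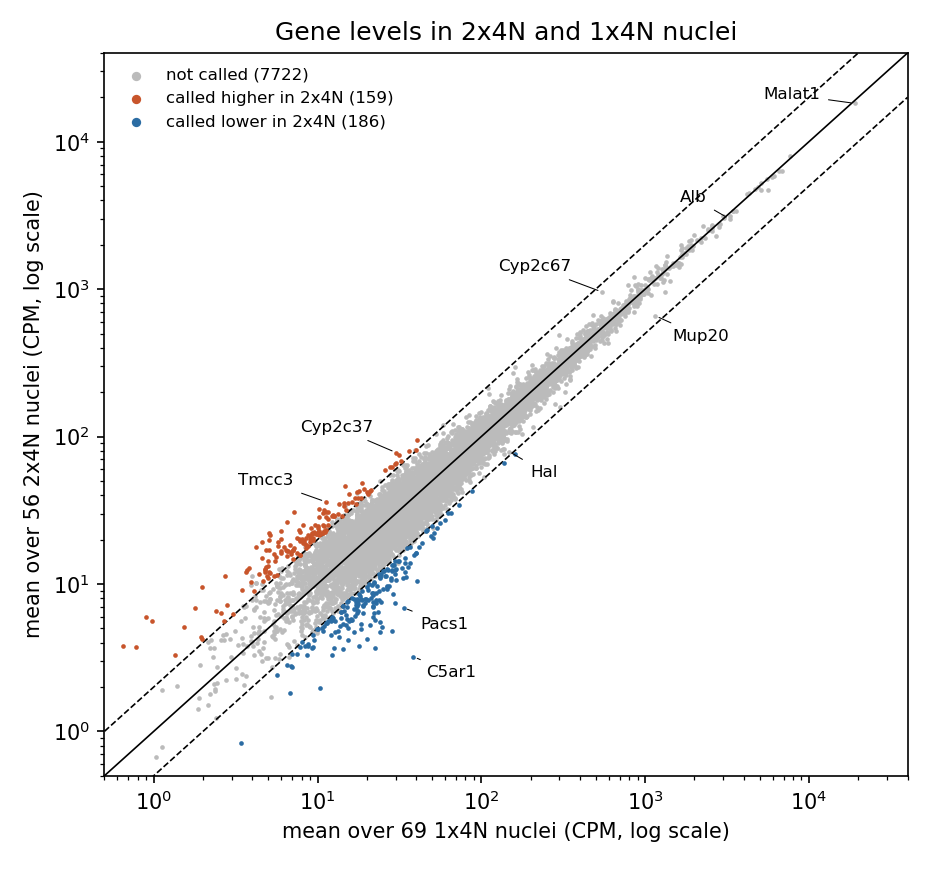
Mean CPM over the 56 2x4N nuclei against the mean over the 69 1x4N nuclei for the 8067 genes tested, on log axes, with the genes called higher (1.97%) and lower (2.31%) in colour and dashed lines at 2-fold. Most called genes average under 20 CPM, and abundant genes such as Malat1 and Alb lie near the diagonal.

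Abundant hepatocyte genes had nearly equal levels. Alb, which encodes serum albumin, ranged from 1422 to 9339 CPM in 2x4N (median 2734, mean 2988) and from 788.9 to 6580.4 CPM in 1x4N (median 3329, mean 3289), a log2 ratio of means of -0.14. Cps1, the first enzyme of the urea cycle, averaged 4739 and 5082 CPM (log2 -0.10), and the nuclear noncoding RNA Malat1 18201 and 19116 CPM (log2 -0.07). The receptors Egfr and Ghr, for epidermal growth factor and growth hormone, averaged 8011 and 7715 CPM and 5228 and 5123 CPM in 2x4N and 1x4N, and the transcription factor Zbtb20 5577 and 5568 CPM.

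Among the 19 lists of hepatocyte and general function, each with at least 4 genes tested, the pericentral list had the highest median. The lists and their members were chosen with earlier results of these data known, so their counts and medians are a description only. Of 39 pericentral genes, 21 were tested, and 18 of these lay above 0 on the log2 scale, where 50.2% of all genes tested did. The median log2 ratio was 0.43, beside 0.00 over all genes. By the 2-fold rule 3 were called higher (background 1.97%) and 0 lower (background 2.31%), and by the 1.5-fold rule 5 were higher and 1 lower, where 7.30% and 8.23% of all genes were. The 3 called were Cyp1a2 and Cyp2c37, cytochrome P450 enzymes of drug and fatty acid metabolism, and Tbx3, a transcription factor of the Wnt-responsive central zone. Of 38 periportal genes, 32 were tested, 0 were called in either direction, and the median was -0.08, with 21 of the 32 below 0. By the 1.5-fold rule 4 were lower in 2x4N and 0 higher, where 8.23% of all genes were lower.

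The promoters of zonal genes described below that RefSeq (GRCm38.p6) supplied are shown to give the sequence at their starts, for Cyp2c37 and Cyp1a2 on the pericentral and Hal on the periportal side, and Tbx3 and Sds are named only. Each is a window of 300 bases across the transcription start, printed on the gene's strand, for Cyp2c37 chr19:39992174-39992473 (plus strand), for Cyp1a2 chr9:57683606-57683905 (minus strand) and for Hal chr10:93488518-93488817 (plus strand). Capitals mark the core motif CTTTGA or its reverse complement TCAAAG, the sequence to which the Wnt effectors of the TCF family bind; the motif and its reverse complement do not overlap each other here.
Cyp2c37: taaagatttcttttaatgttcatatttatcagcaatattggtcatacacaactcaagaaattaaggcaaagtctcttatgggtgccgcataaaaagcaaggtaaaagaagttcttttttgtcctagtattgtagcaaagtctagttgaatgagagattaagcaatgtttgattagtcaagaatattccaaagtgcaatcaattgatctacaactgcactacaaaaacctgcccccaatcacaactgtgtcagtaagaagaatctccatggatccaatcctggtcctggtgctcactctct
Cyp1a2: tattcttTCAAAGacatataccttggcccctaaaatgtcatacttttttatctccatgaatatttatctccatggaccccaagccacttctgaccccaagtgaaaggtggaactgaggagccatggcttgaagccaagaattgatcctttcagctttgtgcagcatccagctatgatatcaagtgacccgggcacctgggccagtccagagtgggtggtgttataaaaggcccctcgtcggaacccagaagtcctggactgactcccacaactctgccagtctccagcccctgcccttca
Hal: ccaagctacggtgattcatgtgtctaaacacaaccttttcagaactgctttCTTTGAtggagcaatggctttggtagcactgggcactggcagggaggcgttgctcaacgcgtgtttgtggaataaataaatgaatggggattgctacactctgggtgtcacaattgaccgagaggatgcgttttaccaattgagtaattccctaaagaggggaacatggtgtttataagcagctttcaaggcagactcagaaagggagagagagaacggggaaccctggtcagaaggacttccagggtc
The Cyp2c37 window held 0 copies of the motif, the Cyp1a2 window 1 and the Hal window 1. The motif was present in 16.003% of all 32851 promoters of this length given by RefSeq, beside 9 of 33 promoters (27.3%) of the pericentral list and 6 of 27 (22.2%) of the periportal list.

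Cyp2c37 (chromosome 19, 39992424 to 40012243, plus strand, GENCODE M21 on GRCm38) ranged from 0 to 643.04 CPM in 2x4N, with a median of 9.35 and a mean of 77.9, and from 0 to 352.5 CPM in 1x4N, with a median of 0 and a mean of 30.1. It had a count in 41 of 56 and 28 of 69 nuclei, and the summed counts were 1642 (95% Poisson interval 1564 to 1723) and 678 (627.9 to 731.01). These intervals cover the error of independent counts only, and are too narrow if the counts are amplified reads. The fold of means was 2.59 (log2 1.37, and 1.42 without the highest nucleus of each group). In thinned nuclei 58.5% had a count in 2x4N (95% Clopper-Pearson interval 44.1 to 71.9) and 37.1% in 1x4N (25.2 to 50.3). Most nuclei of both groups lay at low values and the groups overlapped, with more 2x4N nuclei at high levels.

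Cyp1a2 (chromosome 9, 57676937 to 57683703, minus strand) ranged from 0 to 611.05 CPM in 2x4N and from 0 to 117.3 CPM in 1x4N, with medians of 0 in both and means of 30.95 and 11.3 (log2 1.46). The 2 nuclei with most counts held 64.7% of the 2x4N counts. The log2 ratio was 1.07 without the highest nucleus of each group and 0.58 without the 3 highest (means of 12.1 and 8.07 CPM), and the call was lost in the latter case, in thinned nuclei and with a pseudocount of 1 CPM. A count was present in 18 of 56 and 21 of 69 nuclei, and in 28.3% and 30.6% after thinning, while the means differed. Tbx3 (chromosome 5, 119670669 to 119684724, plus strand) averaged 34.6 CPM in 2x4N (0 to 608.8, median 0) and 13.5 CPM in 1x4N (0 to 198.3, median 0), with 50.7% of the 2x4N counts in 1 nucleus and a log2 ratio of 1.16 without the highest nuclei. Only 18.8% of the 1x4N nuclei had a count of Tbx3, so it passed the detection filter through 2x4N, and with counts summed per group it was not called.

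The pericentral genes that were not called had smaller ratios. Cyp2c54 ranged from 0 to 1783 CPM in 2x4N (median 176.2, mean 294.9) and from 0 to 1798 CPM in 1x4N (median 21.2, mean 161.5), a log2 ratio of 0.87. Cyp2e1, which oxidises ethanol and other small molecules, ranged from 0 to 3500.1 CPM in 2x4N (median 749.01, mean 1066) and from 6.58 to 2789.9 CPM in 1x4N (median 435.4, mean 789.7), a log2 ratio of 0.43. Both genes were spread over the same span in the 2 groups, and the 2x4N values were shifted toward the upper part. Cyp7a1, the rate-limiting enzyme of bile acid synthesis, averaged 306.5 and 204.01 CPM (log2 0.59), and Aldh1a1, which makes retinoic acid, 195.5 and 110.8 CPM (log2 0.82, and 0.58 without the highest nuclei, since 1 nucleus of 2x4N reached 2617 CPM). Glul, glutamine synthetase of the cells next to the central vein, averaged 145.1 CPM in 2x4N (0 to 1412, median 55.9) and 107.4 CPM in 1x4N (0 to 1156, median 38.3). Levels were closer for 2 other members: Por, the electron donor of the microsomal P450 enzymes, averaged 2223 and 2193 CPM (log2 0.02), and Cyp27a1, a sterol hydroxylase, 976.7 and 912.4 CPM (log2 0.10). Gstm1, a glutathione transferase, lay the other way at 4.49 and 8.05 CPM (log2 -0.84).

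On the periportal side Hal, which breaks down histidine, ranged from 0 to 731.4 CPM in 2x4N (median 5.10, mean 78.997) and from 0 to 923.9 CPM in 1x4N (median 66.9, mean 148.3), a log2 ratio of -0.91. Sds, serine dehydratase, ranged from 0 to 842.7 CPM in 2x4N (median 3.21, mean 167.1) and from 0 to 1316 CPM in 1x4N (median 208.6, mean 281.7), a log2 ratio of -0.75. More than a few nuclei of both groups were at 0 for these genes, and the highest values were in 1x4N. Hsd17b6 (12.8 and 22.5 CPM) and Gcat (7.05 and 11.4 CPM) had log2 ratios of -0.82 and -0.69, and Gls2, the liver glutaminase, averaged 228.9 and 330.3 CPM (log2 -0.53). The urea cycle enzymes Ass1 (log2 0.10), Asl (log2 0.14) and Arg1 (log2 -0.01) and the gluconeogenic enzyme Pck1 (log2 -0.05) had nearly equal levels.

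**Figure D3:**
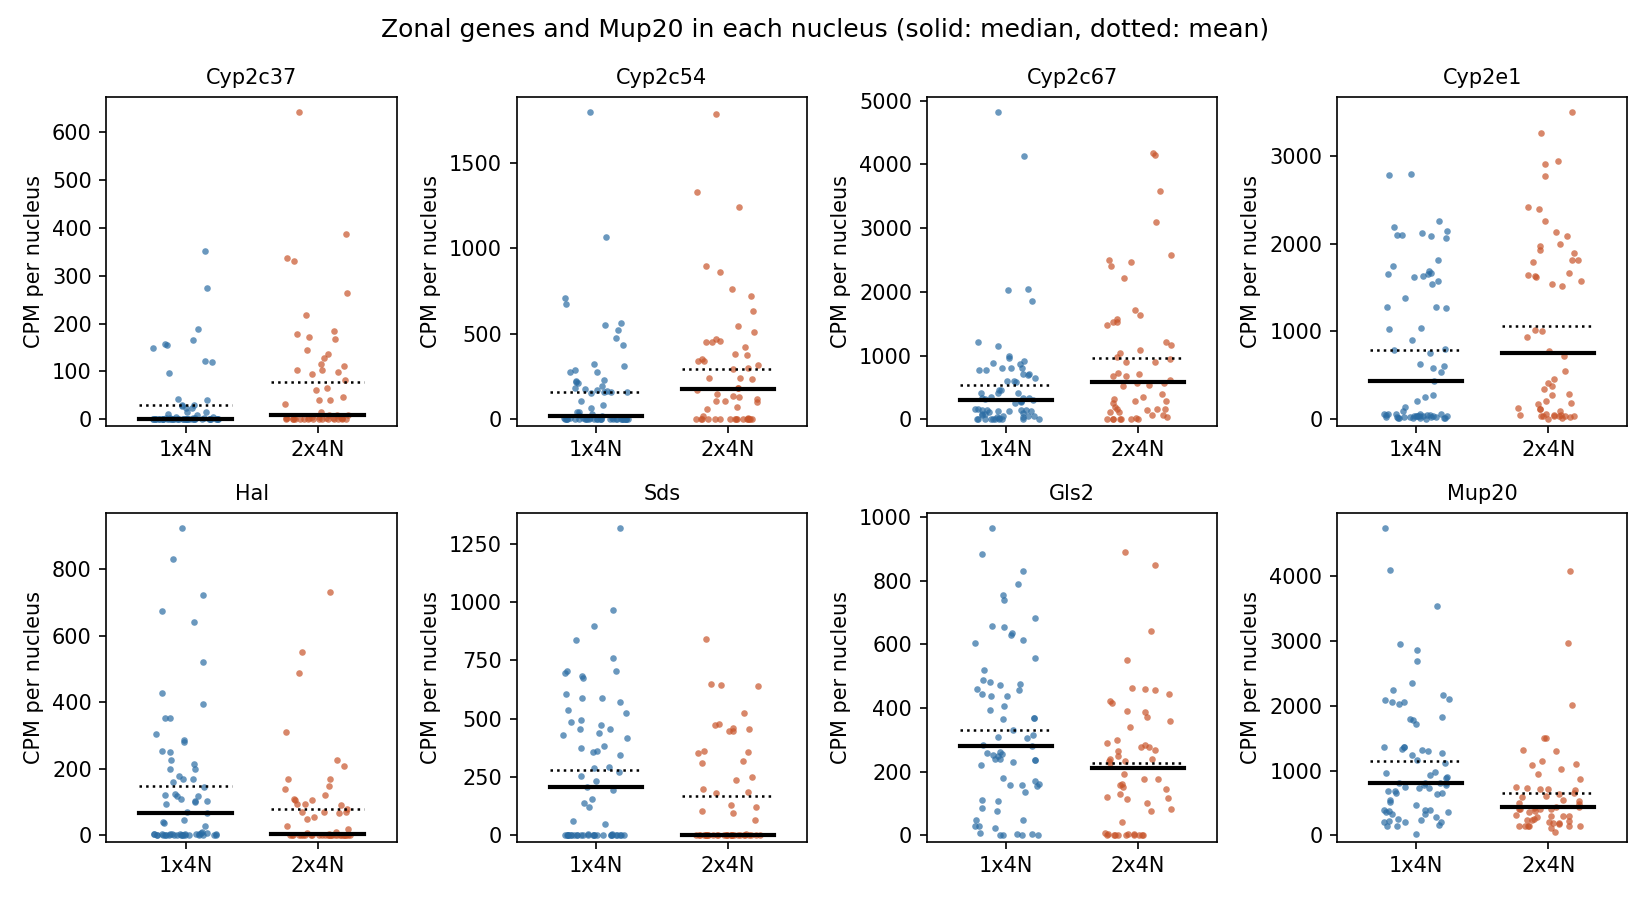
CPM in each nucleus (points) for 4 P450 genes in the top row and for Hal, Sds, Gls2 and Mup20 in the bottom row, with the median as a solid and the mean as a dotted bar. Means are higher in 2x4N for the P450 genes (Cyp2c37 77.9 and 30.1 CPM) and lower for the bottom row (Hal 78.997 and 148.3 CPM), and the nuclei of the groups overlap in every panel.

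The zonal lists were combined into 1 value per nucleus, the share of pericentral counts among pericentral and periportal counts. Its median was 18.8% in 2x4N (range 5.60 to 49.98%, quartiles 11.2 and 32.1%) and 14.4% in 1x4N (range 4.69 to 55.4%, quartiles 9.86 and 26.3%). A share over 50% was found in 0 of 56 nuclei (95% Clopper-Pearson upper bound 6.38%) and in 1 of 69, or 1.45% (0.0367 to 7.81%). These intervals cover the sampling of nuclei within 1 sample per group and compare no conditions. The diploid nuclei had lower medians that hardly differed, 9.41% in 2x2N and 9.66% in 1x2N, and the separately labelled P60 4N nuclei, whose nuclear number is not given, had a median of 26.1%, with 18 nuclei (11.2%) over 50%. Those nuclei had a median spike-in share of 0.510% of counts, against 5.48% in 2x4N and 5.70% in 1x4N, so their values are set beside the others only.

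**Figure D4:**
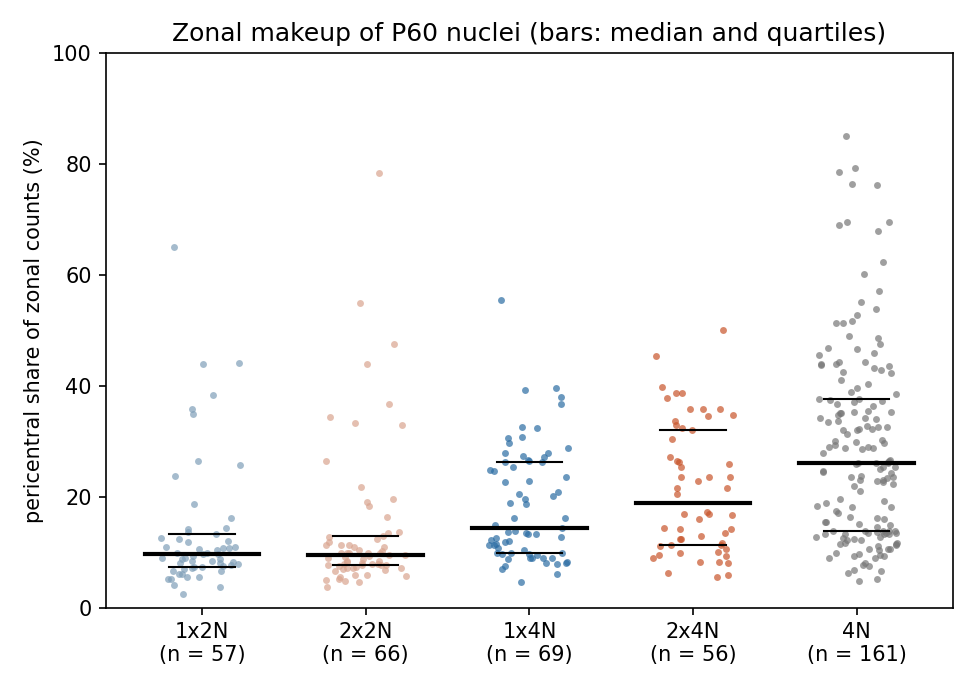
Share of pericentral counts among all counts of the pericentral and periportal lists, in percent, for each P60 nucleus (points), with the median and quartiles as bars. The medians are 9.66% (1x2N), 9.41% (2x2N), 14.4% (1x4N), 18.8% (2x4N) and 26.1% (4N), and the 1x4N and 2x4N nuclei cover nearly the same range.

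Within each group some of these genes were set against Cyp2e1 over nuclei. The Cyp2c genes used had the highest ratios of their family, and Hal and Sds were among the lowest of the periportal list. Spearman's rho over nuclei between Cyp2e1 and the summed CPM of Cyp2c29, Cyp2c37, Cyp2c54 and Cyp2c67 was 0.76 over the 56 2x4N nuclei and 0.75 over the 69 1x4N nuclei. Between Cyp2e1 and the sum of Hal and Sds it was -0.74 in both groups. Not every zonal gene followed Cyp2e1: for Cps1, the most abundant gene of the periportal list, rho was 0.05 in 2x4N and -0.24 in 1x4N. The correlated values of a nucleus share its depth and its total, and rho is given as a description. The part of the zonal makeup of the sorted nuclei in the differences between the groups was not tested.

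The family of Cyp2c genes, most of which lie together on chromosome 19, was described across all its members after their values were seen. Of 11 members tested, 9 lay above 0 (median log2 0.55), from Cyp2c37 at 1.37 and Cyp2c54 at 0.87 through Cyp2c67 (957.3 and 544.4 CPM, 0.81), Cyp2c29 (486.4 and 296.3 CPM, 0.71) and Cyp2c68 (1209 and 860.7 CPM, 0.49). Cyp2c70 (2760.3 and 2859 CPM, -0.05) and Cyp2c44 (24.6 and 28.7 CPM, -0.22) did not. The number above 0 was 8 with counts summed per group and 7 without the 3 highest nuclei of each group. These genes are near-identical in sequence, and how reads shared by such copies were counted is not given in the sources used here, so the assignment to a member is uncertain.

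Among the 1670 genes with a count in at least 90% of nuclei, 3 were at least 1.5-fold higher and 4 at least 1.5-fold lower in 2x4N, and all are named here. Higher were Cyp2c67, Cyp2c29 and Cwf19l2, the last with a mean of 270.6 CPM in 2x4N (4.55 to 1029, median 240.7) and 157.01 CPM in 1x4N (0 to 472.1, median 142.1), a log2 ratio of 0.79. Lower were Mup20, Furin, Hamp2 and Arfgef2. Mup20, a major urinary protein that carries male scent signals, ranged from 57.7 to 4076 CPM in 2x4N (median 431.1, mean 660.1) and from 19.9 to 4738 CPM in 1x4N (median 808.5, mean 1153), a log2 ratio of -0.80. Furin, a protease that cuts proproteins, averaged 81.8 and 137.6 CPM (log2 -0.75), Hamp2, a hepcidin-like peptide, 201.7 and 325.8 CPM (log2 -0.69) and Arfgef2, an exchange factor of ARF proteins in vesicle traffic, 113.2 and 172.6 CPM (log2 -0.61). Mup20 was lower where Cyp2e1 was higher, with rho of -0.52 in 2x4N and -0.45 in 1x4N. Alb had rho of -0.42 and -0.31 and the periportal Cps1 0.05 and -0.24, so this measure alone cannot place a gene on the periportal side. Cwf19l2 (-0.04 and 0.11), Furin (0.05 and -0.07) and Arfgef2 (-0.01 and 0.02) had rho near 0, and Hamp2, which was lower in 2x4N, had a positive rho (0.41 and 0.29). Of the 14 Mup genes tested, several of which are also similar in sequence, 11 lay below 0 with a median log2 of -0.17. In thinned nuclei or without the 3 highest nuclei of each group 9 did, and 8 did without nuclei under 100000 counts.

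Among the called genes of at least 20 CPM, those with the highest folds, other than Eef1b2, had a count in no more than a minority of the nuclei of at least 1 group. Tmcc3 had the highest fold upward, with 0 to 340.9 CPM in 2x4N (mean 36.1, a count in 26 of 56 nuclei) and 0 to 130.5 CPM in 1x4N (mean 11.2, 15 of 69 nuclei), a fold of 3.22 and log2 1.69. Its median was 0 in both groups. Next came Cep290, a centrosome and cilium protein (32.4 and 10.2 CPM), Khsrp, an RNA-binding protein of mRNA decay (46.4 and 14.8 CPM), the membrane protein gene Gypc (31.97 and 10.99 CPM), Cyp1a2, and Fis1, of mitochondrial fission (30.9 and 11.6 CPM). Cep290 had a count in 15.9% of 1x4N nuclei and passed the detection filter through 2x4N. Others were Parp3 (40.6 and 15.6 CPM) and Atrip, the partner of the DNA damage kinase ATR (42.1 and 17.4 CPM), Akr7a5, an aldehyde reductase (48.01 and 18.8 CPM), Ezh1, a histone H3 methyltransferase of Polycomb (35.6 and 14.6 CPM), Mettl1, a tRNA methyltransferase (43.01 and 17.8 CPM), and Tspan14, a tetraspanin (28.8 and 12.2 CPM). Eef1b2, a subunit of translation elongation factor 1, was the most widely detected of these, with a count in 46 of 56 and 40 of 69 nuclei, medians of 53.1 and 3.52 CPM and means of 75.3 and 31.4 CPM (log2 1.26).

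In the other direction Pacs1, a sorting protein of the trans-Golgi, averaged 6.90 CPM in 2x4N (6 of 56 nuclei with a count) and 33.5 CPM in 1x4N (23 of 69), log2 -2.28, and passed the detection filter through 1x4N. Polr1b, a core subunit of RNA polymerase I, ranged from 0 to 102.9 CPM in 2x4N (mean 11.2) and from 0 to 295.3 CPM in 1x4N (mean 34.5), log2 -1.62, with a count in 15 of 53 and 31 of 62 thinned nuclei. E2f3, a transcription factor of cell cycle entry, averaged 15.7 and 38.6 CPM (log2 -1.30). Rnf170, a ubiquitin ligase of the endoplasmic reticulum, averaged 12.1 and 34.3 CPM, Gatad1 10.6 and 29.98 CPM, Rnf44 13.1 and 35.8 CPM, and Tceb1, which encodes elongin C, 12.8 and 32.8 CPM. Gatad1 had a count in 17.9% of 2x4N nuclei and passed the detection filter through 1x4N. Further down were Gskip (11.6 and 29.6 CPM), the RNA helicase gene Ddx1 (20.4 and 51.03 CPM), Mrpl3 of the mitochondrial ribosome (16.1 and 40.1 CPM), Ift140 of transport in cilia (13.9 and 34.002 CPM), Zbtb2 (16.3 and 39.8 CPM), Zbtb8os (12.5 and 29.9 CPM) and Tma7 (12.6 and 30.04 CPM). 

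In thinned nuclei the share of nuclei with a count was at least 20 percentage points higher in 2x4N for 66 genes, 0.818% of those tested, and at least 20 points lower for 74, 0.917%. The largest differences upward were those of Ninj1 (54.7% against 24.2%), Parp9 (71.7% against 41.9%), Aldh16a1 (77.4% against 48.4%), Acbd3 (73.6% against 45.2%) and Wdtc1 (79.2% against 51.6%), none of which was called by the 2-fold rule. Among the largest downward were Rpl18 (30.2% against 64.5%), Rnf170 (18.9% against 51.6%), Ube2q1 (11.3% against 43.5%), Cog7 (11 of 53 nuclei against 31 of 62) and Marveld2 (13.2% against 41.9%). Before thinning, Ube2q1 and Marveld2 had a count in 17.9% of 2x4N nuclei and passed the detection filter through 1x4N. Rpl18, a ribosomal protein gene, had close means all the same, 26.6 and 32.2 CPM.

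The other 18 of these lists had medians from -0.13 to 0.12 on the log2 scale, and each had at most 2 members called in either direction, where 1.97% of all genes tested were called higher and 2.31% lower. Of the marker lists of other cell types, endothelial and cholangiocyte markers had 1 gene tested each (log2 0.58 and 0.00) and the rest 0. Mitochondrial respiration had the lowest median: 2 of 41 members tested were called lower and 0 higher, namely Atp5e, a subunit of ATP synthase (12.3 and 28.6 CPM, log2 -1.22), and Ndufa4, of the respiratory chain, which ranged from 0 to 203.7 CPM in 2x4N (median 3.74, mean 30.3) and from 0 to 405.2 CPM in 1x4N (median 38.8, mean 62.5), log2 -1.05. Of 60 ribosomal protein genes, Rps20 (17.7 and 6.27 CPM) and Rps21 (20.5 and 9.38 CPM) were called higher and Rps23 (7.64 and 17.4 CPM) lower. Of the cell cycle and polyploidy list, 20 of 63 genes were tested, 0 were called higher and 1, E2f3, lower; Ccnd3, a G1 cyclin, averaged 181.9 and 215.4 CPM (log2 -0.24) and Yap1, the Hippo effector, 99.4 and 104.1 CPM (log2 -0.07). Bile acid genes had a median of 0.12 with 0 of 25 called, lipid synthesis 0.01 with Sqle, of cholesterol synthesis, called lower (11.6 and 24.5 CPM), and fatty acid oxidation -0.01 with Acot1, an acyl-CoA thioesterase, called higher (22.5 and 10.1 CPM). Growth hormone and sex-biased genes had a median of -0.04 with 1 of 32 called, Mup17, lower (21.3 and 48.99 CPM). For Mup17, 1 nucleus held 73.6% of the 2x4N counts and 2 nuclei held 64.1% of the 1x4N counts. In hepatocyte transcription factors, 1 of 47 was called, Tbx3 again, with a median of 0.01. Drug metabolism held the same Cyp1a2 and Cyp2c37 among 41 tested, with a median of 0.02. Of the plasma protein (57 tested), urea cycle and amino acid (37), glucose and glycogen (24), clock (15), nuclear RNA (10), sex chromosome (4), acute phase and interferon (20), and immediate early and stress (24) lists, 0 members were called. Among the called members, Atp5e, Rps23 and Sqle had a count in 17.9% of 2x4N nuclei. Rps20, Rps21 and Acot1 had a count in 14.5%, 17.4% and 15.9% of 1x4N nuclei. All of these passed the detection filter through the other group, as Tbx3 did.

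**Figure D5:**
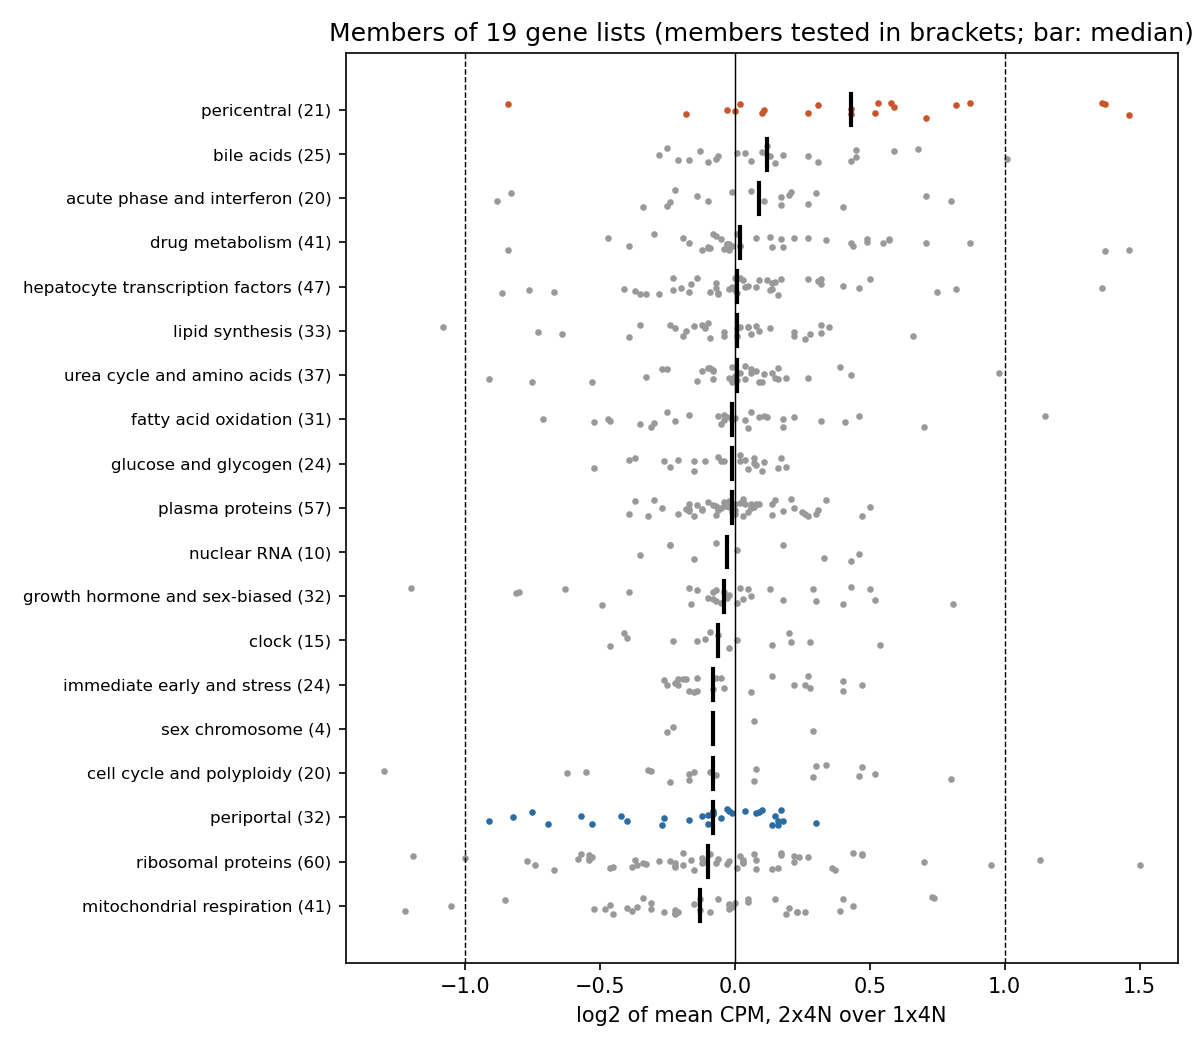
Log2 ratio of mean CPM, 2x4N over 1x4N, for each tested member (points) of 19 gene lists, with the list's median as a bar and dashed lines at 2-fold. The pericentral list has a median of 0.43 and the other 18 lie between -0.13 and 0.12.

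Several large ratios came from 1 nucleus. Of 2241 genes past 2-fold with a count in each group, 912 drew more than 50% of the higher group's counts from 1 nucleus, of which 10 were among the genes tested and 5 among those called. Of the 345 called genes, 75 drew more than 25% of the higher group's counts from 1 nucleus. C5ar1, the complement C5a receptor, had 524 counts in 1 nucleus of 1x4N (94.8% of that group's counts), 25 further 1x4N nuclei with 1 to 3 counts, and 19, 1 and 1 counts in 3 nuclei of 2x4N. It was called lower (log2 -3.58) by the rule with and without the highest nucleus. With a count in 5.36% of 2x4N nuclei, C5ar1 passed the detection filter through 1x4N. Capza2 (41.7 and 17.3 CPM, with 52.1% of the 2x4N counts in 1 nucleus) had a log2 ratio of 1.27 with and 0.26 without the highest nuclei, and Pml (13.9 and 31.04 CPM, with 73.4% of the 1x4N counts in 1 nucleus) -1.16 and -0.04. Cyp3a11, a drug-metabolising P450, averaged 62.02 and 29.7 CPM with 53.5% of the 2x4N counts in 1 nucleus.

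Slc1a2, a glutamate transporter of the cells next to the central vein, had 1053 counts in 1 nucleus of 1x4N, 89 in a second and at most 3 in the others, and 1 count in 1 nucleus of 2x4N. At least 10 counts were thus found in 2 of 69 1x4N nuclei, 0 of 56 2x4N nuclei, 2 of 57 1x2N nuclei and 3 of 66 2x2N nuclei, beside 21 of the separately labelled 4N nuclei, so the 2 tetraploid groups could not be told apart on this gene.

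The diploid nuclei gave the same contrast at the lower nuclear DNA content, and the same genes tested there had more calls, 458 higher in 2x2N than in 1x2N (5.68%) and 425 lower (5.27%), on shallower nuclei (medians of 186918 and 122966 counts). Of the genes called higher in 2x4N, 27 were also called higher in 2x2N (16.98% of the tetraploid and 5.90% of the diploid calls) and 10 lower. Of those called lower, 26 were also lower (13.98% and 6.12%) and 23 higher. No groups are shared by these contrasts, but the difference between them was not tested. Cyp2c37 (39.9 and 17.95 CPM in 2x2N and 1x2N, log2 1.15), Cyp2c54 (165.7 and 49.9 CPM, 1.73), Cyp1a2 (25.9 and 10.1 CPM, 1.35) and Tmcc3 (29.2 and 11.5 CPM, 1.35) were higher in both binucleate groups, and Polr1b (15.2 and 36.3 CPM, -1.25) and Pacs1 (log2 -1.50) lower in both. Tbx3 (7.50 and 7.85 CPM) was not past 2-fold in the diploid contrast. Cyp2c54 was past 2-fold in the diploid contrast only, with log2 0.87 in the tetraploid one. Hal (233.5 and 288.9 CPM, -0.31) and Mup20 (1596 and 1602 CPM, -0.01) were past 2-fold in neither contrast. Nor was Cyp2c29, which changed sign, with log2 0.71 in the tetraploid and -0.35 in the diploid contrast (160.7 and 205.4 CPM). E2f3 also went the other way in the diploid contrast (62.95 and 23.6 CPM, 1.42). The median of the pericentral list was 0.16 in the diploid contrast against 0.43 in the tetraploid one, and that of the periportal list 0.12 against -0.08.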

How the data were processed

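The deposited table of nuclei holds whole-number counts per gene symbol, 40824 genes and 92 ERCC spike-ins, without normalization, per the file headers and values; the authors' counter, use of strand and handling of reads shared by similar genes are not stated here. The submitters' processing notes list, without roles, featureCounts (1.5.3, 2.0.0), HTSeq 0.6.0, HISAT2 2.1.0, TopHat2 2.1.0, UMI-tools 0.5.0 and Trimmomatic 0.39, with GRCm38 and mm10 as builds. Of the values above 0 in the tetraploid nuclei, 11.4% were a count of 1 and the median was 23.0, so counts may be amplified reads. The exact 95% Poisson intervals cover the error of independent counts only, and are too narrow if counts are amplified reads. The 95% Clopper-Pearson intervals cover the sampling of nuclei within 1 sample per group. Columns of 749 P60 nuclei in 6 groups were read, and 364 columns were not used.

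CPM per nucleus, without spike-ins, were computed with numpy 2.4.6 and pandas 2.3.3 (Python 3.11.15). The call rule was also run on simulated nuclei with known folds. The share of unchanged genes called there is not given here, so that run sets no error rate for these calls. Thinning drew 100000 counts per nucleus without replacement from a fixed seed and left out shallower nuclei. Scaling alternatives used edgeR 4.0.16 (TMM) and DESeq2 1.42.0 (size factors) in R 4.3.3 on summed counts, for scaling only; no count test was run, since each group is 1 sample. Each nucleus was sorted into its own well, so no doublet caller was run. Named genes were the 15 called genes per direction with the highest fold and a mean of at least 20 CPM, 5 per direction by the difference in share of thinned nuclei, called list members or the most abundant ones, 6 genes dominated by 1 nucleus, and Slc1a2, Glul, Alb and Xist; genes outside the rule are those with a count in 90% of nuclei past 1.5-fold, other zonal genes, and the Cyp2c and Mup families, chosen after their values were seen. The members and gene lists were chosen with earlier results of these data known.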

Additional observations from a re-analysis of the deposited data

How the results depend on the processing

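Counts of calls depended on which genes were tested, on the fold threshold and on means or medians. Beside 345 calls in all (1.97% of genes higher and 2.31% lower), the counts higher and lower changed as follows: medians over nuclei gave 903 and 609, since a median of 0 in 1 group counts as past any fold, a count in 10% of nuclei 351 and 445, a count in 40% 33 and 39, no filter beyond 1 count in each group 841 and 971, a 1.5-fold threshold 589 and 664, and 10 counts in 20% of nuclei 39 and 43. The last of these, the exclusion of nuclei under 100000 counts and the share with at least 10 counts were chosen after seeing the data. Of the calls higher and lower, 50.9% and 53.8% were also called in thinned nuclei, 69.8% and 76.3% with summed counts, and 18.2% and 15.6% with medians. Thinning, summed counts, the mean over all nuclei alone, 3 highest nuclei left out, a pseudocount of 1 CPM, TMM, size factors, totals without the 20 top genes and exclusion of nuclei under 100000 counts kept both counts within 1.5 times; excluding nuclei under 2000 genes left out 0 nuclei. The share of genes detected in 20 points more nuclei, 0.818%, became 1.88% without thinning, and that of genes detected in 20 points fewer, 0.917%, became 0.595% with at least 3 counts and 0.335% with at least 10 counts unthinned.

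Of the 40 called genes named, 37 were still called with summed counts (not Tbx3, Tma7 and Atp5e), 34 in thinned nuclei (not Cyp1a2, C5ar1, Acot1, Mup17, Rps20 and Atp5e), 39 without the 3 highest nuclei or with a pseudocount (not Cyp1a2), 36 without nuclei under 100000 counts, 23 with 10 counts in 20% of nuclei, 20 with a count in 40% and 18 with medians. None of the 40 changed sign in these settings where a ratio could be had; as they were chosen past 2-fold, that is no sign of stability. The pericentral median ranged from 0.22 to 0.44 and the periportal one from -0.11 to -0.04. The median pericentral share was 16.2% in 2x4N and 10.999% in 1x4N without the most abundant gene of each list (Por and Cps1), and 20.2% and 14.9% after thinning. No paired analysis was possible because the replicate numbers in the labels only count nuclei and no test was run. With 1 sample per group, no difference has a replicate check.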

Other observations

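Genes that 1 nucleus held at a high level also gave small counts in other nuclei with the same group label. For genes with at least 200 counts in 1 nucleus, at least 80% of their group's counts there and fewer than 20 counts in any nucleus of the other 3 groups of known nuclear number, 1 to 3 counts were tallied over the other nuclei. The limits of this rule differ between a gene's own group and the other groups. The shares are therefore partly set by the choice of genes and are given as a description. The 5 such genes of 1x4N (P2rx7, 2010107G12Rik, Cntnap2, C5ar1 and Espl1) had 1 to 3 counts in 37 of 340 gene and nucleus pairs of 1x4N (10.9%), against 2 pairs in 2x4N (0.714%), 1 in 1x2N (0.351%) and 1 in 2x2N (0.303%). C5ar1 alone gave 25 of the 37 pairs of 1x4N, so this share is mostly that of 1 gene. The 6 such genes of 2x2N, among them Retn with 1281 counts in 1 nucleus, had them in 36 of 390 pairs of 2x2N (9.23%), 3 of 1x4N (0.725%), 3 of 2x4N (0.893%) and 0 of 1x2N. The 2 genes of 1x2N had 11 such pairs (9.82%) in their own group, 3 in 1x4N (2.17%), 3 in 2x4N (2.68%) and 1 in 2x2N (0.758%). For 2x4N the rule found 1 gene, with 2 of 55 pairs (3.64%) in its own group, 1 of 69 in 1x4N (1.45%), 1 of 66 in 2x2N (1.52%) and 0 of 57 in 1x2N. The labels do not say which nuclei shared a library pool. The number of nuclei with a count thus includes nuclei with 1 to 3 counts, of which C5ar1 and Slc1a2 are the clearest cases here.

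For the 1670 genes with a count in at least 90% of nuclei, the median coefficient of variation over thinned nuclei was 0.682 in 2x4N and 0.698 in 1x4N.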
